A study of Saccharomyces cerevisiae with 59 samples.

Results

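The NOP, UTP and RRP genes of Saccharomyces cerevisiae are named for nucleolar proteins, proteins of the U3 particle and ribosomal RNA processing, and nearly all of their products build ribosomes. The 53 genes whose standard symbol is NOP, UTP or RRP followed only by digits were taken from the R64 annotation of the yeast reference strain and joined to the count tables by systematic name. They comprised 17 NOP, 18 UTP and 18 RRP genes of the 6420 genes listed, and each of the 53 had an entry in every library. The study put bulk RNA through the protocol it used for single cells, at 6 input amounts, with 10 libraries each at 5 pg, 10 pg and 20 pg, 7 at 100 pg, 8 at 1 ng and 9 at 10 ng. The RNA came from spheroplasts, that is cells whose wall zymolyase had removed, of S288C grown from 1 clone. All groups shared this strain and amino acid starvation in a medium with sorbitol and no amino acids, for 30 min to 5 h by the labels (the methods of the study state a shorter upper limit), so no unstarved control enters any comparison here. Another 5 bulk libraries of the same cells and treatment, titled H6P, carry no amount in their labels and were compared with nothing. The labels do not tie the libraries of an amount to separate cultures, so p-values measure the spread between these libraries only, which may be technical.

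Ribosome assembly in yeast begins in the nucleolus, where RNA polymerase I makes a long precursor of ribosomal RNA. Box C/D snoRNPs, built on Nop1, Nop56 and Nop58, methylate this precursor, and box H/ACA snoRNPs, which contain Nop10, convert uridines to pseudouridine. The small subunit processome, with its UtpA and UtpB subcomplexes, folds and cleaves the part that becomes the 40S subunit. Other factors assemble the 60S subunit, and the exosome, a ring of RNase-like subunits with attached nucleases, trims RNA 3' ends. These genes are transcribed together in growing yeast and are known to be repressed when nutrients run out.

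The promoters of the 53 genes were examined for the motifs that ribosome biogenesis genes are known for. PAC (searched as GATGAG) binds the repressors Dot6 and Tod6, and RRPE (searched as AAAAATTT) binds Stb3. Both were sought on both strands in the 250 bases before the start codon, whatever neighbouring gene lay there. PAC was present in 43 of 53 promoters (81.1%), against 1020 of 5979 promoters of all protein-coding genes (17.1%). RRPE was present in 39 (73.6%), against 803 (13.4%), and both together in 32 (60.4%), against 299 (5.00%). All 4 snoRNP protein genes held both motifs, as did 11 of the 14 genes of 60S assembly, 3 of the 4 UtpB genes, 4 of the 6 UtpA genes and 8 of the 17 other genes of 40S assembly. Of the 7 exosome genes 1 held both, 3 held PAC, 3 held RRPE and 2 held neither. The 62 PAC matches had a median position of -119 from the first base of the start codon (-229 to -38), and the 54 RRPE matches one of -134 (-245 to -34). The match of these letters is a description of the window and not a measured binding site.

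Promoters of 4 genes are printed because the results below turn on these genes: NOP1 led the counts of the 53 genes at 10 ng, NOP56 and NOP15 were lower at 5 pg than at 10 ng, and RRP46, an exosome gene with neither motif, rested on 1 library at 5 pg. Each runs 5' to 3' on the strand of the gene, from 250 bases before to 50 bases after the start of the coding sequence in R64, with PAC and RRPE matches of either strand in capitals. AAATTTTT is the RRPE reverse complement and CTCATC that of PAC, and neighbouring matches can overlap. The windows are chrIV:427114-427413 on the plus strand (NOP1), chrXII:545847-546146 on the plus strand (NOP56), chrXIV:418439-418738 on the minus strand (NOP15) and chrVII:676293-676592 on the minus strand (RRP46).
NOP1: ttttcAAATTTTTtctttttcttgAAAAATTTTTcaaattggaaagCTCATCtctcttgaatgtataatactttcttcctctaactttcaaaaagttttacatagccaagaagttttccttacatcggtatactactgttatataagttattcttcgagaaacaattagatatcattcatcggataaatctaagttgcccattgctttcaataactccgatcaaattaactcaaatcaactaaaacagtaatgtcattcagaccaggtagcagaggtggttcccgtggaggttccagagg
NOP56: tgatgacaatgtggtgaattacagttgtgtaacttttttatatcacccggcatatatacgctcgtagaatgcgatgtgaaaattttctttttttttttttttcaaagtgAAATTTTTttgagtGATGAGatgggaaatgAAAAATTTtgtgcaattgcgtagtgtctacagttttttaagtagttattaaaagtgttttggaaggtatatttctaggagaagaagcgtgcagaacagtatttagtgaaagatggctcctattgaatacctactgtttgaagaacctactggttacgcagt
NOP15: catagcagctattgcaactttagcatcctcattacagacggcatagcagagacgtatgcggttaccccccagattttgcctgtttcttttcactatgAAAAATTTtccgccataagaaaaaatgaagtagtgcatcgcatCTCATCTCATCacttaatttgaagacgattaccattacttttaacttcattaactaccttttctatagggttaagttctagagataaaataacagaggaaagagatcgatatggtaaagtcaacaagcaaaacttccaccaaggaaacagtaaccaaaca
RRP46: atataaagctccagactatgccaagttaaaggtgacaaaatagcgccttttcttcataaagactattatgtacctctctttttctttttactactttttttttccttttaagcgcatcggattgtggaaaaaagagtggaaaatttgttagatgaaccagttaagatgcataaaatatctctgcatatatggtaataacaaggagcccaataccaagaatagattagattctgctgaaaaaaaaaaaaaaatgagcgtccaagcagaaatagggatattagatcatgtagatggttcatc
NOP56 held RRPE on each side of PAC, and the PAC matches of NOP15 overlap by 1 base.

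The 53 genes lay on 14 chromosomes, and none had an intron or overlapped another annotated gene. Their coding length ranged from 177 nt (NOP10) to 7482 nt (UTP20), with a median of 1455 nt against 1200 nt over the 5980 protein-coding genes. Their median GC content was 38.2%, against 39.8% over all of these genes.

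The 54 grouped libraries held between 290434 and 2452562 counts on genes, so that a count of 0 allowed up to 1.22 to 10.3 CPM (counts scaled to a common library total) in a library. Such limits cover counting error only, since PCR copies are not separate molecules. A gene was called detected in a library with at least 5 counts. The markers matched the label of the cells: the 4 genes specific to alpha cells summed to 361 to 7536 CPM, above 0 in all 54 libraries, while the 7 genes specific to a cells summed to 0 to 135 CPM (median 0 CPM) and were above 0 in 22 libraries. The 5 starvation-induced MET genes summed to between 9153 and 39813 CPM. Libraries numbered 1 to 4 and libraries numbered above 4 differed at several amounts, and values within both sets are given where they bear on a result.

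Together the 53 genes were a small and highly variable part of the transcriptome. In RNA pooled from many cells, fewer cells with a transcript and less of it per cell cannot be told apart. The paper describes the amounts as dilutions of purified bulk RNA, so a difference between amounts is not read here as a change in the cells. Their summed level ran from 11.9 to 3769 CPM at 5 pg (median 941 CPM), from 155 to 2170 CPM at 10 pg (median 962 CPM) and from 267 to 2340 CPM at 20 pg (median 1113 CPM). It ran from 208 to 1666 CPM at 100 pg (median 387 CPM), from 189 to 1548 CPM at 1 ng (median 297 CPM) and from 179 to 385 CPM at 10 ng (median 261 CPM). The SD fell with input, but it was close to the mean both at 5 pg (1251 ± 1206 CPM, n = 10) and at 1 ng (458 ± 455 CPM, n = 8). Only at 10 ng was it small beside the mean (268 ± 65.1 CPM, n = 9). The 10 ng values overlapped those of every other amount. The set of the library moved with this level at 10 pg and 100 pg, where the sets did not overlap: at 10 pg the libraries numbered 1 to 4 summed to 155 to 415 CPM and those above 4 to 942 to 2170 CPM, and at 100 pg to 208 to 387 CPM and 1015 to 1666 CPM. At 5 pg, 20 pg, 1 ng and 10 ng the sets overlapped, with 179 to 325 CPM and 239.6 to 385 CPM at 10 ng. Library 1 at 5 pg was the lowest, with 10 counts of these genes in 841389. The 32 genes with both promoter motifs summed to 898 ± 930.2 CPM at 5 pg (SD, n = 10) and 204 ± 42.1 CPM at 10 ng (n = 9). The other 21 summed to 353 ± 506 CPM and 63.7 ± 30.6 CPM in that order. NOP1, which holds both motifs, alone had a mean of 103 CPM at 10 ng. The sums also cover unequal numbers of genes, so they give no contrast by motif.

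**Figure D1:**
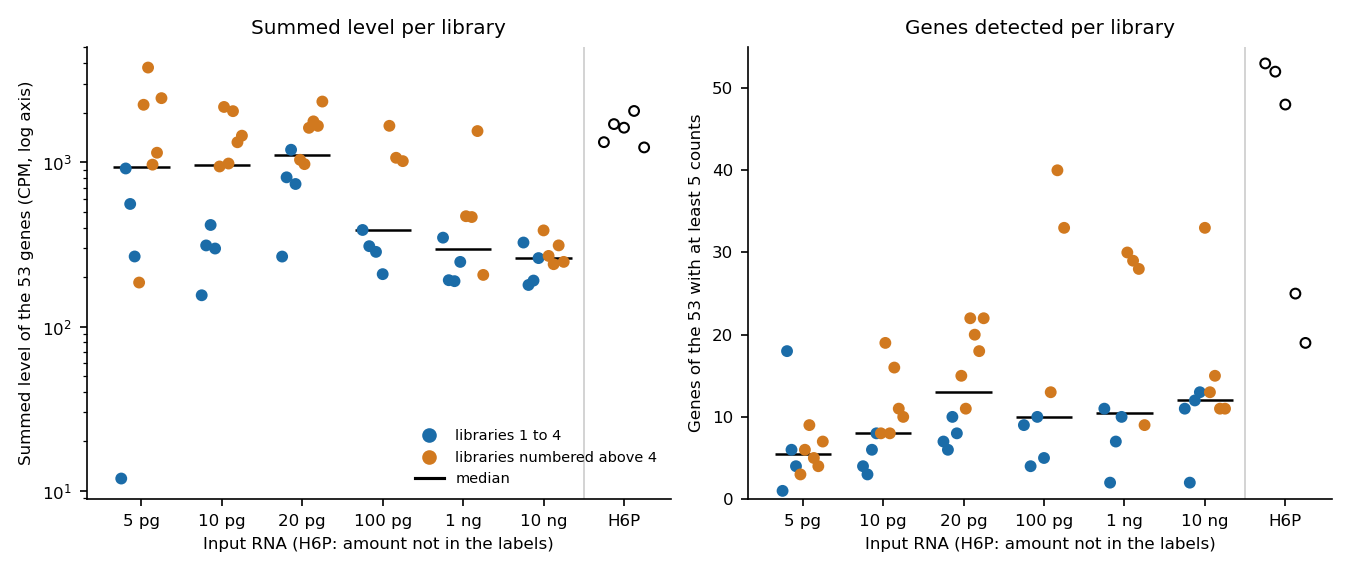
Summed level of the 53 genes in CPM (left, log axis) and number of them with at least 5 counts (right) in every library, by input amount. Blue points are libraries 1 to 4, orange points those numbered above 4, lines are medians and open circles the 5 H6P libraries. The 5 pg libraries span 11.9 to 3769 CPM and the 10 ng libraries 179 to 385 CPM.

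Detection did not follow the summed level. The libraries detected 6.30 ± 4.67 of the 53 genes at 5 pg (SD, n = 10), 9.30 ± 5.01 at 10 pg (n = 10) and 13.9 ± 6.28 at 20 pg (n = 10). They detected 16.3 ± 14.3 at 100 pg (n = 7), 15.8 ± 11.3 at 1 ng (n = 8) and 13.4 ± 8.19 at 10 ng (n = 9). As a share of the list, this was 11.9% at 5 pg and 25.4% at 10 ng, while the libraries detected 23.4% and 44.5% of all 6420 genes. The range was wide at every amount, from 1 to 18 genes at 5 pg and from 2 to 33 at 10 ng. Libraries numbered 1 to 4 detected means of 7.25, 5.25, 7.75, 7, 7.5 and 9.5 of the genes in order of the amounts, and those above 4 detected 5.67, 12, 18, 28.7, 24 and 16.6. The higher means at middle amounts thus lay in the second set. All genes moved the same way, with 38.2% and 52.3% detected in the 2 sets at 20 pg and 37.8% and 63.7% at 100 pg. The sets also differed in depth, at 742481 to 1007717 and 1441786 to 2000395 counts at 100 pg. Thinned to 290000 counts each, the libraries detected 3.75 ± 2.44 genes at 5 pg (n = 10) and 3.53 ± 1.12 at 10 ng (n = 9), a difference within their spread, and 6.86, 9.21, 8.02 and 5.29 at the amounts between. Over all genes the thinned libraries detected 1126 ± 453 at 5 pg and 1915 ± 245 at 10 ng. By set, the thinned 100 pg libraries detected means of 2.51 (1 to 4) and 15.4 (above 4) of the 53 genes, and 1614 and 3008 of all genes. Within 10 ng, the deepest library (5, with 1575402 counts) detected 33 genes and the shallowest (2, with 290434 counts) detected 2, while at 5 pg the shallowest (2, with 670136 counts) detected the most.

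What the libraries did share less and less at low input was the identity of the leading gene. NOP1, which encodes fibrillarin, the methyltransferase of box C/D snoRNPs, led in 9 of 9 libraries at 10 ng, 8 of 8 at 1 ng, 6 of 7 at 100 pg and 7 of 10 at 20 pg. It led in 1 of 10 at 10 pg and in 0 of 10 at 5 pg. There, 8 different genes led 10 libraries. At 5 pg these were NOP4 in libraries 2, 4 and 10, and NOP58, RRP46, RRP5, NOP7, RRP6, RRP43 and UTP10 in 1 each. The leading gene held 63.0% ± 14.2 of the counts of the 53 genes at 5 pg (SD, n = 10), and the leading 3 held 90.7% ± 9.98. At 10 ng these shares were 39.5% ± 7.68 and 54.4% ± 10.3 (n = 9). The share of NOP1 itself was 28.7% to 50.0% in the 10 ng libraries and 0% to 23.6% in the 5 pg libraries, and these ranges do not overlap.

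**Figure D2:**
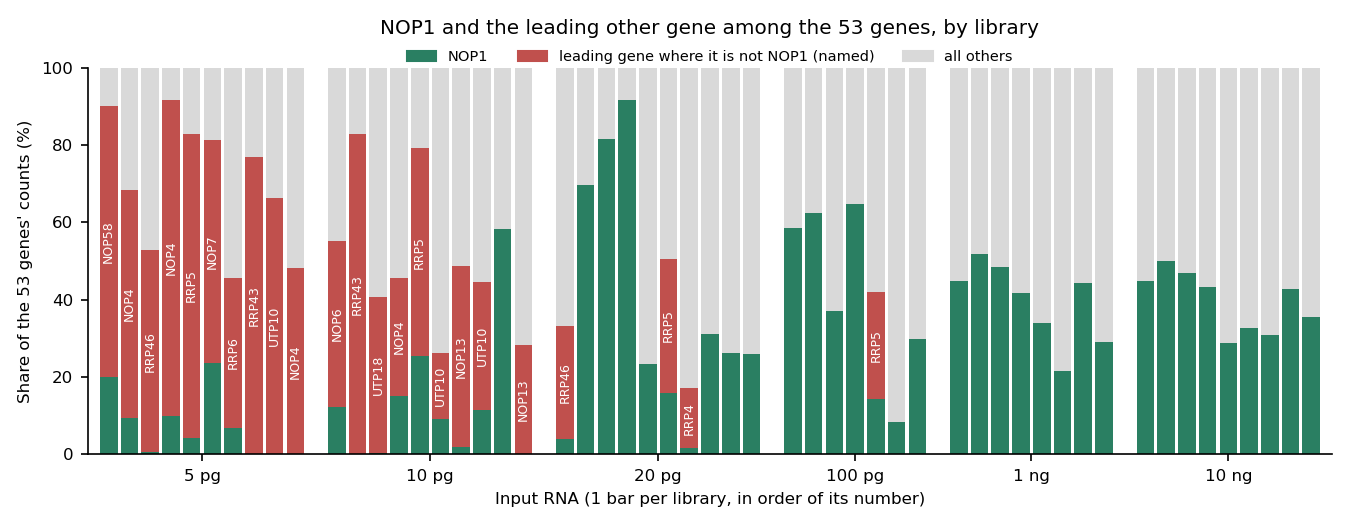
Share of the counts of the 53 genes held by NOP1 (green) and, where another gene led, by that gene (red, named), with all others in grey. Each bar is 1 library, in the order of its number, so a reader sees NOP1 lead all 9 bars at 10 ng and none of the 10 at 5 pg.

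Per kb of coding length, the order at 10 ng was led by a pair of snoRNP genes. NOP10, the short H/ACA snoRNP protein, had 108 ± 36.4 CPM per kb and NOP1 had 105 ± 24.2 CPM per kb (SD, n = 9), which do not differ beyond their spread. They were followed by NOP6, a factor of 40S assembly, with 14.3 ± 8.99 CPM per kb, RRP42, an exosome ring subunit, with 11.5 ± 6.07 CPM per kb, NOP15 of 60S assembly with 10.99 ± 4.92 CPM per kb, and RRP4, an RNA-binding exosome subunit, with 10.8 ± 6.02 CPM per kb. These 4 overlapped each other and stood well below the first pair. The median of the 53 genes was 0.867 CPM per kb against 3.895 CPM per kb over 5980 protein-coding genes, and 15 of the 53 lay above that median. Not divided by length, NOP10 and NOP1 had means of 19.2 and 103 CPM at 10 ng. Over the 53 genes Spearman's rho of coding length with mean CPM at 10 ng was -0.36, so counts did not grow with length. The paper also reports coverage that falls toward the 5' end. Values per kb, for the members and for all genes, can therefore favour short genes. Another 5 genes had no count in any 10 ng library: NOP2 (a 25S rRNA methyltransferase), NOP14, RRP7 and RRP36 (40S assembly) and RRP12 (export of both subunits). Over the 9 libraries this allows up to 0.351 CPM for each.

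**Figure D3:**
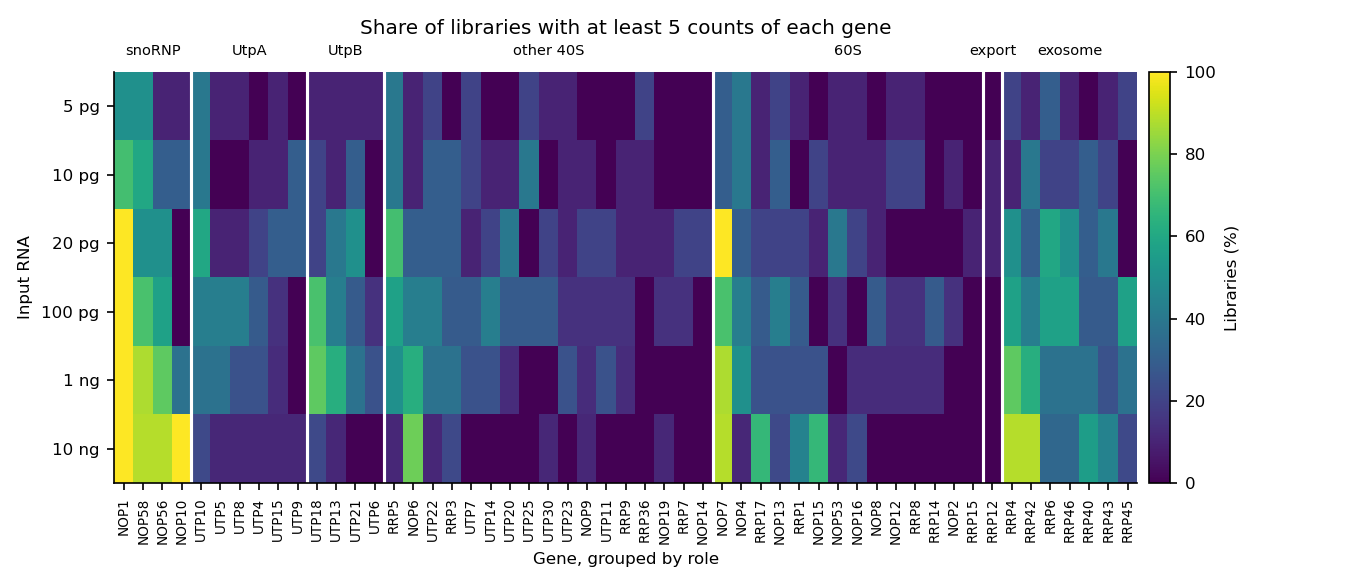
Share of libraries, in percent, with at least 5 counts of each of the 53 genes (columns, grouped by role) at each input amount (rows). At 10 ng, NOP1 and NOP10 were detected in all 9 libraries and 19 genes in none, and at 5 pg no gene was detected in more than 5 of 10.

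Few members were seen reliably at any amount. Genes detected in at least 50% of the libraries numbered 2 at 5 pg and 10 pg, 10 at 20 pg and 100 pg, and 11 at 1 ng and 10 ng. Those detected in no library numbered 18, 12, 8, 8, 11 and 19 in order of the amounts. Such counts were not taken over all genes, so whether they set the members apart was not tested. On average a library detected 23.4%, 34.1%, 46.7%, 48.9%, 51.0% and 44.5% of all genes in that order. For the members these means were lower, at 11.9%, 17.5%, 26.2%, 30.7%, 29.7% and 25.4%. NOP1 was the only member detected in every library of the 4 highest amounts. NOP7, a 60S assembly factor of the PeBoW complex, was detected in all 10 libraries at 20 pg, 5 of 7 at 100 pg, 7 of 8 at 1 ng and 8 of 9 at 10 ng.

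The 4 snoRNP protein genes differed in their course over the amounts. NOP1 ranged from 0 to 528 CPM at 5 pg (median 5.13 CPM), from 10.5 to 971 CPM at 20 pg (median 492 CPM) and from 73.7 to 145 CPM at 10 ng (median 89.5 CPM). Its 10 ng libraries therefore lay close together and inside the range of the 5 pg libraries, 7 of which were under 30 CPM. NOP10 was at 0 in 7 of 10 libraries at 5 pg and at 10 pg, 9 of 10 at 20 pg and 5 of 7 at 100 pg, and reached 0 to 14.2 CPM at 1 ng (median 3.88 CPM) and 13.9 to 34.4 CPM at 10 ng (median 17.3 CPM). It also had 90.8 CPM in 5 pg library 7 and 72.3 and 41.1 CPM in 10 pg libraries 6 and 10, all above its 10 ng range. The 20 pg and 100 pg values of NOP10, at most 2.00 CPM, did not overlap those at 10 ng. NOP58 had 0 to 620.3 CPM at 5 pg (median 4.37 CPM) and 3.44 to 20.2 CPM at 10 ng (median 13.4 CPM), whereas its partner NOP56 was at 0 in 9 of 10 libraries at 5 pg and at 3.44 to 20.2 CPM at 10 ng (median 12.1 CPM).

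**Figure D4:**
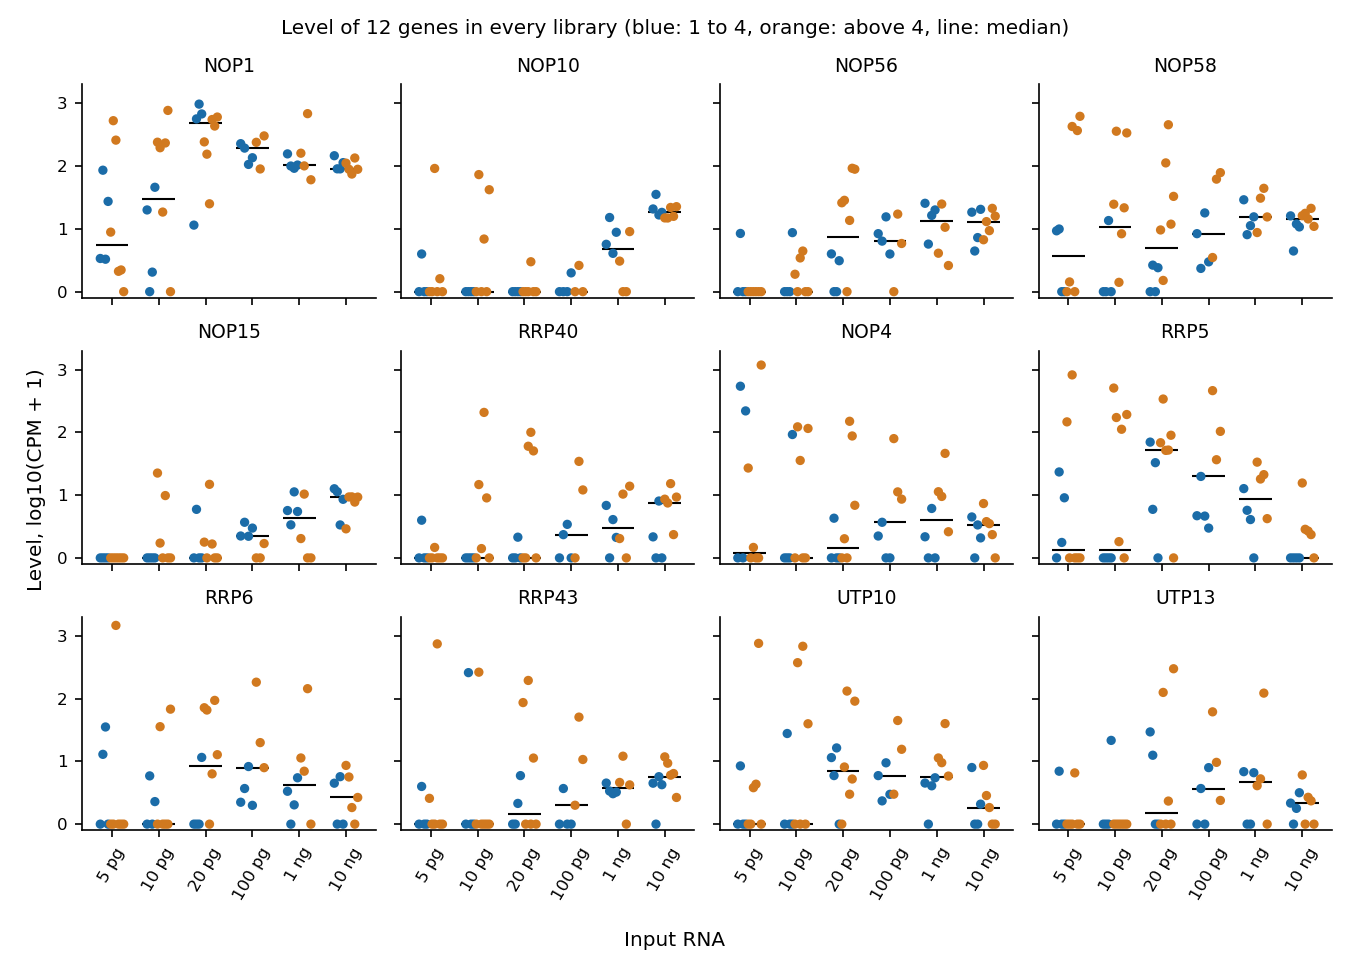
Level of 12 of the genes in every library as log10(CPM + 1), by input amount, with libraries 1 to 4 in blue, those above 4 in orange and the median as a line. NOP15 is at 0 in all 10 libraries at 5 pg and NOP10 is above 0 in all 9 at 10 ng, while RRP6, RRP43 and UTP10 each show 1 high library at 5 pg, at 1463, 743 and 757 CPM.

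The lowest and the highest amount were compared gene by gene with the quasi-likelihood test of edgeR after TMM scaling, over the 3492 genes that reached 5 counts in 20% or more of these libraries. Fold changes are log2 values of 5 pg over 10 ng relative to the median of all genes tested, which lay at 1.64, and each test and SE refers to the value before that subtraction. Of the 53 genes, 20 passed the filter and 11 were called (adjusted p under 0.05), 7 higher and 4 lower at 5 pg. Over all genes tested 30.6% were called, 23.0% higher and 7.65% lower. The median of the 20 was 0.53, and 11 of the 20 had a value above 0. The direction depended on the scaling: with library totals only, 1 was called higher and 4 lower (177 and 332 of all genes), and with DESeq2 2 and 7 (594 and 748), with the median of all genes at 0.38 and -0.41. No member was called within libraries 1 to 4 by edgeR (8 had an unadjusted p under 0.05) and none was called higher within those above 4, where 6 were called lower. Over all genes this set gave 37 higher and 596 lower calls of 3390, so the calls of the members had the direction of most others. With 1 library left out the count was 8 to 12, except without 10 ng library 1, 2, 3, 4 or 6, when it was 7, and without 10 ng library 7, 9 or 10, when it was 6.

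The genes called lower at 5 pg were the more even ones. NOP15, a 60S assembly factor with an RNA recognition motif, was at 0 in all 10 libraries at 5 pg and at 1.90 to 11.6 CPM at 10 ng (median 8.30 CPM; adjusted p = 0.00177 in edgeR). The observed values did not overlap, but a count of 0 allowed up to 4.48 CPM in 5 pg library 2, above the lowest 10 ng value. NOP15 reached 5 counts in 6 of 9 libraries at 10 ng and 0 of 10 at 5 pg, so it passed the filter through 10 ng alone. Against a limit of 3 counts over the 10 libraries its pooled level was at least 33.7-fold higher at 10 ng. That limit covers counting error only and not the spread between libraries, so it is no lower bound on the fold change. NOP56, with 7.46 CPM in library 2 and 0 in the other 9 libraries at 5 pg, changed by -5.23 on the log2 scale (SE 1.04, adjusted p = 0.0153 in edgeR). Both calls held when any 1 library was left out, with NOP56 between -8.10 and -4.76.

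Exosome genes were called in both directions. RRP40, an RNA-binding subunit, had 0 to 2.98 CPM at 5 pg (0 in 8 of 10 libraries) and 0 to 14.2 CPM at 10 ng (median 6.49 CPM), with a log2 fold change of -4.74 (SE 0.99, adjusted p = 0.0232 in edgeR). RRP40 reached 5 counts in 5 of 9 libraries at 10 ng and 0 of 10 at 5 pg, so it too passed the filter through 10 ng alone. RRP42, a ring subunit, had 0 to 5.97 CPM at 5 pg (0 in 8 of 10) and 3.44 to 18.9 CPM at 10 ng (median 8.30 CPM), with a log2 fold change of -4.22 (SE 0.92, adjusted p = 0.0357 in edgeR). Both overlapped between amounts in a few libraries. RRP40 lost its call without 10 ng library 7 (adjusted p = 0.0524 in edgeR), and RRP42 without any 1 of 10 ng libraries 1, 3, 4, 6, 7, 9 and 10 (edgeR adjusted p up to 0.0660).

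The other exosome calls were higher at 5 pg, and each gene had 1 high library. RRP6, the nuclear exonuclease, had 1463 CPM in library 7, 34.3 CPM in library 3, 11.9 CPM in library 2 and 0 in the other 7 at 5 pg, against 0 to 7.62 CPM at 10 ng (median 1.66 CPM). Its log2 fold change was 5.68 (SE 2.14, adjusted p = 0.0158 in edgeR) and 1.84 without library 7 (adjusted p = 0.0747 in edgeR). RRP43, a ring subunit, had 743 CPM in library 8 and at most 2.98 CPM in the other 9 at 5 pg, against 0 to 10.8 CPM at 10 ng (median 4.70 CPM). Both genes were thus at 0 in most 5 pg libraries while their mean was higher than at 10 ng. For RRP43 the log2 fold change of 3.52 (SE 1.90, adjusted p = 0.0398 in edgeR) turned to -3.40 without library 8 (adjusted p = 0.136 in edgeR), and the call was lost without 5 pg library 3 or 4 or any 1 of the 9 libraries at 10 ng. RRP46, another ring subunit, had 293 CPM in library 3 and at most 5.97 CPM elsewhere at 5 pg, against 0 to 13.96 CPM at 10 ng (median 2.70 CPM). Its log2 fold change was 3.97 (SE 2.00, adjusted p = 0.0350 in edgeR). The gene failed the filter without 5 pg library 3 or 10 ng library 4, 5 or 7, and the call was lost without 5 pg library 4 or 10 ng library 1, 2, 3, 6, 9 or 10 (edgeR adjusted p up to 0.119).

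Outside the exosome, 4 genes were called higher at 5 pg. NOP4, a 60S assembly factor with several RNA recognition motifs, had 1179.6, 542, 219 and 26.0 CPM in libraries 10, 2, 4 and 5 and under 1 CPM in the other 6. At 10 ng it had 0 to 6.35 CPM (median 2.35 CPM), and the log2 fold change was 5.49 (SE 1.91, adjusted p = 0.0115 in edgeR). RRP5, a large scaffold needed for both subunits, had 821, 146, 22.4 and 8.07 CPM in libraries 7, 5, 2 and 4 and under 1 CPM in the other 6, against 0 to 14.6 CPM at 10 ng (median 0 CPM). NOP4 thus had 4 libraries above its 10 ng range and 6 near 0 at 5 pg. For RRP5, libraries 7, 5 and 2 lay above its 10 ng range, library 4 lay within it and the other 6 were near 0. The log2 fold change of RRP5 was 5.91 (SE 2.11, adjusted p = 0.0141 in edgeR), and both calls held without any 1 library, RRP5 between 4.96 and 7.17 and NOP4 between 5.17 and 5.99.

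UTP10, a large scaffold of UtpA, had 757 CPM in library 9 and at most 7.46 CPM in the other 9 at 5 pg, against 0 to 7.62 CPM at 10 ng (median 0.838 CPM). Its log2 fold change of 4.29 (SE 1.92, adjusted p = 0.0242 in edgeR) turned to -0.87 without library 9 (adjusted p = 0.639 in edgeR), and the call was also lost without 10 ng library 2, 9 or 10. NOP58 rested on libraries 7, 9 and 10 at 5 pg, with 427, 367 and 620.3 CPM. The log2 fold change of NOP58 was 2.58 (SE 1.57, adjusted p = 0.0414 in edgeR), was lost without 5 pg library 3, 4, 7 or 10 or any 1 of the 9 libraries at 10 ng (edgeR adjusted p up to 0.0998), and was -0.87 within libraries 1 to 4. No member of UtpB passed the filter in this comparison, and 1 of the 6 UtpA genes and 2 of the 17 other genes of 40S assembly did.

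Whether a gene was detected gave a more even picture than its mean. Of the 42 members detected in at least 1 and not all of the 19 libraries, 7 were detected in fewer libraries at 5 pg than at 10 ng by a two-sided Fisher's exact test, and 0 in more. Over all 4697 genes so tested 22.5% were called, 22.4% in fewer and 0.106% in more 5 pg libraries, and the members' 7 of 42 lay below this background. NOP10 was detected in 1 of 10 libraries against 9 of 9 (exact test, adjusted p = 0.00421), while its level was not called (adjusted p = 0.839 in edgeR). NOP56 and RRP42 were both detected in 1 of 10 against 8 of 9 (exact test, adjusted p = 0.0119 each). The other 4 were NOP15 (0 of 10 against 6 of 9), RRP4 (2 of 10 against 8 of 9), NOP6 (1 of 10 against 7 of 9) and RRP40 (0 of 10 against 5 of 9). Among them are 3 exosome genes and 2 snoRNP genes. Without 1 library the number ran from 3 to 9: it was 3 without 5 pg library 1, 3, 5, 7, 8, 9 or 10, 4 without 5 pg library 4 or 6 or 10 ng library 3, 5, 6, 7 or 10, and 9 without 10 ng library 2. At equal depth NOP1 was the only call among 26 members tested, against 848 of 3866 genes.

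The steps between neighbouring amounts moved few of the 53 genes. From 5 pg to 10 pg, edgeR called 0 of 15 members tested and 0% of 3443 genes, with 3 members and 539 genes at an unadjusted p under 0.05, and DESeq2 called 0 members and 116 genes. From 10 pg to 20 pg it called 0 of 25 (0.0456% of 4388 genes), with 3 members and 344 genes at an unadjusted p under 0.05, and DESeq2 called 1 member and 145 genes. From 20 pg to 100 pg it called 0 of 31 (0% of 4546 genes), with 2 members and 177 genes at an unadjusted p under 0.05, and DESeq2 called 0 members and 3 genes. The lowest adjusted p of these 3 steps was 0.252 (edgeR, RRP42, 5 pg against 10 pg).

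From 100 pg to 1 ng, edgeR called 1 of 35 members tested, against 6.87% of 4670 genes (3.45% higher and 3.43% lower at 100 pg). This was RRP5, with 1.98 to 461 CPM at 100 pg (median 18.9 CPM) and 0 to 32.5 CPM at 1 ng (median 8.21 CPM). Library 5 stood highest at 100 pg, and the groups overlapped. The log2 fold change of RRP5 for 100 pg over 1 ng was 2.61 (SE 0.84, adjusted p = 0.0486 in edgeR). It was 0.99 without 100 pg library 5 (adjusted p = 0.501 in edgeR), and the call was also lost without 100 pg library 2 or 1 ng library 1, 2, 3, 4, 7 or 10. The count of members was 2 without 1 ng library 9 and 0 without 100 pg library 2 or 1 ng library 1, 2, 3, 4, 7 or 10.

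From 1 ng to 10 ng, edgeR called 4 of 25 members tested, against 36.7% of 3927 genes. Higher at 1 ng were 3 (20.8% of all genes), and 1 was lower (15.9%). NOP10 rose with input, from 0 to 14.2 CPM at 1 ng to 13.9 to 34.4 CPM at 10 ng, where 7 of 8 values at 1 ng lay below all 9 at 10 ng. Its log2 fold change was -2.47 for 1 ng over 10 ng (SE 0.65, adjusted p = 0.0116 in edgeR), and it stayed between -2.91 and -2.08 and called without any 1 library.

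The 3 genes higher at 1 ng depended on single libraries. UTP13, a WD40 subunit of UtpB, had 121 CPM in 1 ng library 9 and at most 5.85 CPM in the other 7, against 0 to 5.08 CPM at 10 ng, with a log2 fold change of 2.61 (SE 0.90, adjusted p = 0.0190 in edgeR) that fell to 0.62 without that library (adjusted p = 0.412 in edgeR). RRP6 had 143 CPM in the same library and at most 10.3 CPM elsewhere at 1 ng, with a log2 fold change of 1.97 (SE 0.85, adjusted p = 0.0463 in edgeR) and of 0.14 without it (adjusted p = 0.769 in edgeR). Library 9 also held the highest summed level at 1 ng, 1548 CPM against at most 469 CPM in the other 7. RRP5 had 0 to 32.5 CPM at 1 ng (median 8.21 CPM) and was at 0 in 5 of 9 libraries at 10 ng, with a log2 fold change of 1.77 (SE 0.75, adjusted p = 0.0400 in edgeR). The call of RRP5 was lost without any 1 of 11 of the 17 libraries (1 ng libraries 1, 5 and 7 and all 10 ng libraries but 5), with an edgeR adjusted p up to 0.0978, and without library 5 at 10 ng the value was 3.18. The RRP6 call was also lost without 10 ng library 1, 2, 4, 6, 7, 9 or 10. The count of members called ran from 2 to 6 over these fits, with 2 without 1 ng library 9 or 10 ng library 2, 4, 6, 7, 9 or 10, and 6 without 1 ng library 3.

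In the comparisons with 10 ng, the direction of change went with coding length. Across the 25 members tested for 1 ng against 10 ng, Spearman's rho between coding length and log2 fold change was 0.87, and it was 0.75 across 3924 genes of known coding length. Across the 20 members tested for 5 pg against 10 ng it was 0.65, and 0.45 across 3489 genes. In the other 4 comparisons rho was lower for the members, at 0.31 (5 pg against 10 pg), 0.03 (10 pg against 20 pg), 0.09 (20 pg against 100 pg) and 0.35 (100 pg against 1 ng), against -0.05, -0.06, 0.04 and 0.37 across all genes. Genes are not independent replicates and share the same libraries, so these are descriptions with no p. At 10 ng the 27 members at or below the median length summed to 204 ± 31.8 CPM and the 26 longer ones to 63.2 ± 36.8 CPM (SD, n = 9). At 5 pg these sums were 396 ± 405 CPM and 855 ± 897 CPM (n = 10). The longer members thus held the smaller part at 10 ng and the larger mean, with a far wider spread, at 5 pg. What part length has in the calls was not tested.

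**Figure D5:**
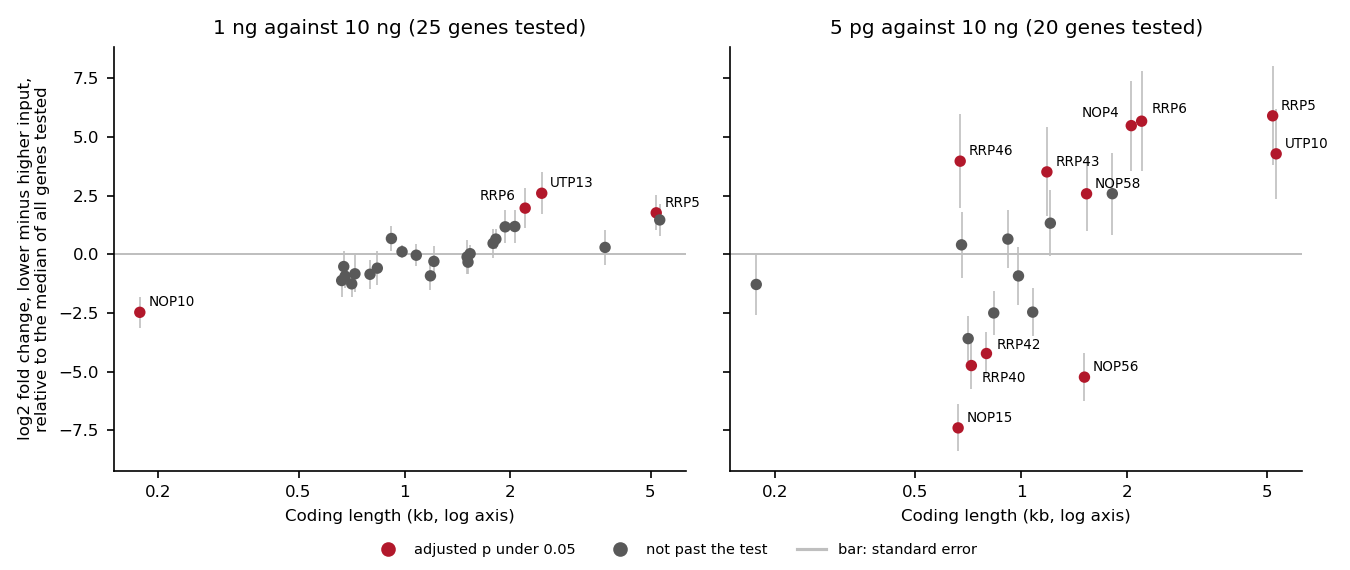
log2 fold change of the members tested, lower over higher input and relative to the median of all genes tested, against coding length in kb (log axis), for 1 ng against 10 ng (left) and 5 pg against 10 ng (right). Red points passed an edgeR adjusted p of 0.05, grey points did not, and bars are SEs. On the left the shortest gene, NOP10, lies lowest at -2.47 and UTP13 highest at 2.61.

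Other genes of the pathway were followed in 5 lists with 120 genes, none of them among the 53. For 5 pg against 10 ng, 48 were tested, 8 were called higher and 10 lower at 5 pg (23.0% and 7.65% of all genes). The 6 with the smallest adjusted p were all lower and included AIR2 (an RNA-binding subunit of the TRAMP complex), RPA34 (a subunit of RNA polymerase I) and MRT4 (a stalk assembly factor), which were at 0 in all 10 libraries at 5 pg and had means of 12.2, 11.7 and 5.79 CPM at 10 ng (adjusted p = 0.00177, 0.00177 and 0.00238 in edgeR). AIR2, RPA34 and MRT4 thus passed the filter through 10 ng alone. The others of these 6 were LOC1 and EBP2 of 60S assembly and KRR1 of the small subunit processome, with means of 0.149, 0.149 and 0.260 CPM at 5 pg and 14.1, 5.94 and 12.8 CPM at 10 ng. The 8 higher ones, named here after their values were seen, were PWP2, NOB1, TRF5, RPA135, SFP1, DIS3, NSA2 and MTR3. Their 5 pg means of 36.7 to 191 CPM stood on few libraries, with medians of 0 to 1.45 CPM and highest values of 304 to 1896 CPM. By list, 4 of 16 tested genes of 60S assembly were lower and 1 was higher, and 3 of 17 of the small subunit were lower and 2 higher.

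For 1 ng against 10 ng, 63 of the 120 were tested, 9 were called higher and 5 lower at 1 ng (20.8% and 15.9% of all genes). DOT6, whose product binds the PAC motif and represses ribosome biogenesis genes, had 60.6 to 211 CPM at 1 ng (median 81.1 CPM) and 19.3 to 47.7 CPM at 10 ng (median 31.6 CPM), and these groups did not overlap. Its log2 fold change was 1.30 (adjusted p = 0.000270 in edgeR) for 1 ng over 10 ng and 1.40 for 100 pg over 1 ng (adjusted p = 0.0258 in edgeR). The large subunits of RNA polymerase I, RPA190 and RPA135, and DIS3, the catalytic exosome subunit, were also higher at 1 ng, with log2 fold changes of 1.74, 2.18 and 1.55. RPA135 had a median of 4.76 CPM and a highest value of 202 CPM at 1 ng, against a median of 2.70 CPM at 10 ng. Another subunit of RNA polymerase I, RPA14, named here after its values were seen, was lower at 1 ng (-1.93, adjusted p = 0.0262 in edgeR). NHP2, the H/ACA partner of NOP10, was lower at 1 ng, as NOP10 was, with means of 13.8 and 30.6 CPM and a log2 fold change of -1.66 (adjusted p = 0.00567 in edgeR). KRR1 was lower as well, with a log2 fold change of -1.78. From 100 pg to 1 ng, 2 of 91 were called (6.87% of all genes), DOT6 and NSR1 (the yeast nucleolin), and in the other 3 steps 0 of 38 to 79 were.

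The 5 H6P libraries were deeper, with 6407797 to 14337575 counts, and are given by value only. Libraries 11, 12, 14, 15 and 16 summed to 1325, 1706, 1622, 2051 and 1231 CPM over the 53 genes and detected 53, 52, 48, 25 and 19 of them. NOP1 had 16.5, 11.3, 9.67, 62.1 and 0 CPM in that order, and the genes specific to a cells summed to 49.5 to 173 CPM. RRP43 (84.9 to 226 CPM, median 117 CPM) led libraries 11, 12 and 16, and RRP45, another exosome ring subunit, (49.5 to 230.2 CPM, median 101 CPM) led libraries 14 and 15. RRP7, at 0 in every library at 5 pg, 10 pg and 10 ng, had 43.0 to 129 CPM in the 5 libraries. Libraries 15 and 16 were at 0 for NOP58, NOP15, NOP4, UTP10 and RRP12, which libraries 11, 12 and 14 all detected. At 290000 counts the libraries detected 29.0, 28.2, 34.0, 22.4 and 15.0 of the 53 genes.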

How the data were processed

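Each deposited file lists, for 1 library, unnormalized counts of genes and spike-ins. Per the labels the authors used STAR 2.5.2 and the R64 genome build, and the submitters' processing notes also name RSEM 1.2.31 and HTSeq. The library kit does not mark strand. The 5 summary lines, which name no gene, took 2.84% to 12.1% of a grouped library and were left out, as were the 92 spike-ins. CPM were computed from these counts over the 6420 genes. Symbols, coordinates and sequence came from RefSeq's R64 annotation and genome (6019 genes by locus tag, 42 by symbol). Lengths are coding lengths.

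Genes that reached 5 counts in 20% or more of the libraries compared entered edgeR 4.0.16 (TMM scaling, quasi-likelihood test), with Benjamini-Hochberg adjustment over all genes tested. An SE is the size of the log2 fold change over the root of its F statistic. DESeq2 1.42.0 was an alternative. Thinning used 20 draws. Versions were R 4.3.3, Python 3.11.15, matplotlib 3.10.9, scipy 1.17.1, pandas 2.3.3 and numpy 2.4.6, and the tests were checked on simulated data.

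The 53 genes, the lists and the tests were chosen with earlier results of these data known. Genes named were those called in a comparison or in the detection test, the lowest adjusted p of a role, the highest 6 and lowest per kb at 10 ng, the shortest and longest, and up to 6 called genes per comparison of the other lists. Genes marked as named after their values were seen are additional.

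The alternatives were size factors (RLE), library totals, DESeq2, no filter, a filter at 50% of libraries, the number of genes detected as a covariate, a replicate block, each set of libraries alone and each library left out.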

Additional observations from a re-analysis of the deposited data

Results flagged for a closer look

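The values examined numbered 66 (the summed level, the number of genes detected and 9 genes, at 6 amounts). Of these, 29 had 1 library far from the rest of its group by Dixon's criterion. Its chance rate of about 1 in 20 holds for normally distributed values. Many groups here had few libraries with a count and a long upper tail, so no excess over chance can be read from the 29. NOP10 at 20 pg, for example, was flagged on 2.00 CPM in library 8 against 0 CPM in the others. The number of the 53 genes detected stood apart in 5 pg library 2 (18) and 10 ng library 5 (33), and the summed level in 1 ng library 9 (1548 CPM).

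At 5 pg, NOP1 stood apart in library 6 (528 CPM), NOP10 in library 7 (90.8 CPM), NOP56 in library 2 (7.46 CPM), NOP4 in library 10 (1179.6 CPM), RRP5 in library 7 (821 CPM), RRP6 in library 7 (1463 CPM) and RRP40 in library 2 (2.98 CPM). At 10 pg, NOP1 did in library 9 (770.0 CPM), NOP56 in library 4 (7.72 CPM), NOP15 in library 5 (21.5 CPM), RRP5 in library 5 (507 CPM), RRP6 in library 10 (66.9 CPM) and RRP40 in library 8 (207 CPM). At 20 pg, NOP10 (2.00 CPM) and NOP58 (455 CPM) did in library 8, NOP15 in library 7 (13.9 CPM) and RRP5 in library 6 (338 CPM).

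At 100 pg, library 5 stood apart for NOP4 (78.5 CPM), RRP5 (461 CPM) and RRP6 (181 CPM), and library 7 for RRP40 (33.5 CPM). At 1 ng, library 9 did for NOP1 (684 CPM), NOP4 (45.2 CPM) and RRP6 (143 CPM). At 10 ng, NOP10 stood apart in library 2 (34.4 CPM) and RRP5 in library 5 (14.6 CPM). In all of these values the library was the highest of its group.

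In the H6P libraries, which entered no comparison, all 53 genes had more than 3 counts in at least 1 library.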

How the results depend on the processing

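For 5 pg against 10 ng, 11 members were called. The number was 5 with library totals only, 21 of 50 tested with no filter, 0 of 5 with the 50% filter and 1 with the detection covariate. It was 0 of 18 within libraries 1 to 4, 6 of 18 within those above 4, and 6 to 12 with 1 library left out. Depth and library set moved with these counts and their part was not tested. From 10 pg to 20 pg, 0 members became 1 with DESeq2. From 100 pg to 1 ng, 1 became 0 with library totals, 2 with DESeq2, 3 within libraries 1 to 4, 0 within those above 4, and 0 to 2 with 1 library left out. From 1 ng to 10 ng, 4 of 25 became 2 of 8 with the 50% filter, 1 of 25 with the covariate, 1 of 14 within libraries 1 to 4 and 0 of 36 within those above 4. The number was 2 to 6 with 1 library left out. Over all genes, 1442 calls of 3927 became 1188 of 2911, 980 of 3927, 870 of 3347 and 83 of 4598 in that order. With 1 library left out they were 1174 to 1627. Over all genes, 1070 calls for 5 pg against 10 ng became 509 with library totals, 1550 of 5625 with no filter and 562 with the replicate block. They became 336 of 2147 with the 50% filter, 35 with the covariate, 0 within libraries 1 to 4 and 633 of 3390 within those above 4. With 1 library left out they were 455 to 1263. For 100 pg against 1 ng, 321 became 113 with totals, 582 with DESeq2, 968 within libraries 1 to 4 and 0 within those above 4. With 1 library left out they were 208 to 492. In the other 2 steps the count of members was 0 under every alternative run.

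The detection test called 7 of 42 members (1058 of 4697 genes), 1 of 32 at a limit of 10 counts (NOP10; 648 of 4253), 1 of 26 at equal depth (NOP1; 848 of 3866), 0 of 30 within libraries 1 to 4 (0 of 3780), 2 of 39 within those above 4 (342 of 4352), and 3 to 9 with 1 library left out. Of the 16 called fold changes under the other settings, 59 of 125 values kept call and direction, 61 kept direction alone and 5 reversed. With DESeq2, RRP43 (-1.79) and RRP46 (-1.14) reversed for 5 pg against 10 ng and RRP6 (-0.032) for 1 ng against 10 ng. Within libraries 1 to 4, NOP58 reversed (-0.87). With 1 library left out, RRP43 ran from -3.40 (5 pg library 8) to 3.92 and UTP10 from -0.87 (5 pg library 9) to 4.71. In each case the cause was not tested. A count of 0 allowed 1.22 to 10.3 CPM in a library, so lower levels could not be told from 0 there.

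Library numbers were not taken as pairs, since in no comparison did every same-numbered pair have deviations correlated above 0.1. The correlations ran from -0.07 to 0.03 for 5 pg against 10 ng (1 of 9 best with its own number), from 0.03 to 0.28 (median 0.20) for 100 pg against 1 ng (5 of 7), from 0.07 to 0.16 for 20 pg against 100 pg (4 of 7) and from -0.002 to 0.49 (median 0.15) for 1 ng against 10 ng (4 of 8). In the upper steps same-numbered libraries thus deviated together in part. With the replicate block, 6 of 20 members tested were called for 5 pg against 10 ng, and RRP43 reversed (-0.79). The block called 0 of 32 for 100 pg against 1 ng and 2 of 25 for 1 ng against 10 ng. Over all genes it called 562, 428 and 1349 in that order.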
